A study of Mus musculus with 9 samples.

Results

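The RANKL and osteoprotegerin axis, with the signals that act beside it in osteoclast formation, was read through 9 genes from mouse tibia. They are Tnfsf11, Tnfrsf11a, Tnfrsf11b, Nfatc1, Traf6, Csf1, Csf1r, Tyrobp and Trem2, taken by their symbol from a table of 22183 genes, and all 9 passed the filter on low counts that kept 14211 genes. Polyadenylated RNA of whole tibia was sequenced in 9 libraries, 3 per group. Naive tibiae were untreated, Ti tibiae had been given titanium particles, and Ti+I-OG tibiae had been given titanium particles and I-OG, a natural polymer hydrogel that carries irisin, a hormone released by muscle. Particles of this kind model the bone loss around implants called aseptic loosening and the hydrogel was injected into the tibia and left for a treatment of 5 weeks. The sources used here give no strain, age or sex of the mice, no number of animals per library and no account of how the particles were delivered. No group received the hydrogel without irisin or the delivery procedure without particles, so neither can be told apart from its agent. Whether each library is a mouse of its own is not said, and the spread behind every p-value below may therefore be partly technical.

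Osteoclasts are the cells that resorb bone, and they form by fusion of precursors of the monocyte and macrophage lineage. RANKL, made by osteocytes, osteoblasts, stromal cells and lymphocytes, binds RANK on the precursor, and osteoprotegerin is a soluble decoy receptor that captures RANKL first. RANK signals through the adaptor TRAF6 to NF-κB and MAP kinases and, with calcium signals from receptors paired with DAP12, switches on NFATc1, the master transcription factor of the osteoclast. M-CSF, acting on its receptor, keeps the precursors alive and makes them express RANK.

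Total counts per library ran from 16256081 to 24766502. Defining markers of bone and marrow were present in every group: none of 8 osteoblast, 5 osteocyte, 10 macrophage, 8 neutrophil or 7 erythroid genes was at 0. Globin genes took 2.95% to 9.47% of counts in naive, 6.68% to 9.98% in Ti and 15.1% to 15.9% in Ti+I-OG libraries. Naive replicate 3 stood apart, with an osteoblast marker sum of 1970 CPM against 4180 and 4370 CPM in the other naive libraries. Without it 213 genes (1.48%) rather than 914 were called in Ti against naive, and 187 (1.3%) rather than 1174 in Ti+I-OG against naive. Such losses were not particular to this library. In Ti the count ran from 100 without Ti replicate 1 to 1999 without Ti replicate 3. In Ti+I-OG it ran from 59 without Ti+I-OG replicate 2 to 2119 without naive replicate 2. In bulk tissue, fewer cells of a type and less RNA per cell cannot be told apart.

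Tnfsf11, which encodes RANKL, was a low-abundance transcript, and its level in Ti tibiae was nominally the highest of the groups. It stood at 1.54, 1.08 and 1.70 FPKM (fragments scaled to transcript length and library depth) in naive replicates 1, 2 and 3. Ti libraries held 2.71, 2.51 and 1.75 FPKM, and Ti+I-OG libraries held 2.40, 1.32 and 0.718 FPKM. All Ti libraries lay above all naive libraries, but the lowest Ti value exceeded the highest naive value only narrowly, and the Ti+I-OG libraries spread from below the lowest naive library to above Ti replicate 3. The log2 fold change of Ti over naive was 0.77 (SE 0.385, 95% interval −0.07 to 1.61) and did not pass the threshold of 0.05 in edgeR's quasi-likelihood test (adjusted p = 0.222). Markers of the cell types that make RANKL were called to unlike extents in Ti, where 4.05% of all genes tested rose. Of the osteocyte markers 5 of 5 rose, of the osteoblast markers 5 of 8 and of the marrow stroma markers 2 of 6, while 0 of 6 T cell and 0 of 6 B lineage markers passed. All 6 B lineage markers nevertheless had a positive log2 fold change (median 0.75). Of these, 4 had an unadjusted p under 0.05 in edgeR's test, where 26.9% of all genes did. Their sums were 108 to 308 CPM in naive and 320 to 355 CPM in Ti. The T cell median was −0.002. Osteocyte markers summed to 89.3 to 118 CPM in naive, 227 to 297 CPM in Ti and 174 to 205 CPM in Ti+I-OG. The part of these cells in the level of Tnfsf11 was not tested. Without naive replicate 3 the osteocyte, osteoblast and stroma markers that rose numbered 5, 4 and 0. The Tnfsf11 values rest on 29 to 135 counts per library. In Ti+I-OG the spread was wider than counting error: 29 counts in replicate 3 correspond to 0.481 to 1.03 FPKM (exact Poisson 95% interval) and 118 counts in replicate 1 to 1.99 to 2.87 FPKM.

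Tnfrsf11b, which encodes the decoy receptor osteoprotegerin, had the largest fold change of the 9 genes between Ti and naive and also the widest spread. Its level was 2.05, 5.40 and 2.23 FPKM in naive replicates 1 to 3. It was 8.24, 10.5 and 3.36 FPKM in Ti, and 4.16, 7.20 and 2.63 FPKM in Ti+I-OG. Ti replicate 3 fell below naive replicate 2, so the groups overlapped. A log2 fold change of 1.26 (SE 0.496, 95% interval 0.18 to 2.35) did not pass (adjusted p = 0.134). Of 6 fits that each dropped 1 library, it passed in 2. These were the fits without naive replicate 2 (1.88, adjusted p = 0.0429) and without Ti replicate 3 (1.61, adjusted p = 0.0459). In the others the adjusted p was up to 0.418. With the replicate number as a block in edgeR's fit it passed (1.26, adjusted p = 0.00426), where 2968 rather than 914 genes were called. Ti+I-OG over naive passed in that fit too (0.73, adjusted p = 0.0388). Libraries of the same number are not said to be paired. Among other connective and vascular cell types 3 of 5 chondrocyte and 6 of 7 tendon and fibrous tissue genes rose in Ti, and 0 of 6 endothelial genes passed. The first of these counts were 1 and 6 without naive replicate 3. The osteoblast marker sum was 1970 to 4370 CPM in naive, 7890 to 9860 CPM in Ti and 5670 to 6950 CPM in Ti+I-OG. The part of these cells in the level of Tnfrsf11b was not tested.

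Tnfrsf11a, the gene of RANK itself, was the least abundant of the 9. It was at 0.819, 0.983 and 1.05 FPKM in naive, at 1.61, 1.64 and 1.04 FPKM in Ti, and at 1.34, 1.09 and 0.990 FPKM in Ti+I-OG. Ti replicates 1 and 2 stood clear of naive and replicate 3 did not: on the FPKM scale it fell just below the highest naive library, while in TMM-normalised CPM it lay just above it, at 5.19 against 4.82 CPM. On the log2 scale Ti exceeded naive by 0.67 (SE 0.237, adjusted p = 0.105) and Ti+I-OG exceeded naive by 0.47 (SE 0.239, adjusted p = 0.211). Without Ti replicate 3 the first of these passed (0.85, adjusted p = 0.0334). That was 1 of 6 fits that each dropped a library, and in the others the adjusted p was up to 0.334.

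The balance of ligand to decoy receptor, read within each library as the FPKM ratio of Tnfsf11 to Tnfrsf11b, did not separate the groups. Naive replicates 1 to 3 had ratios of 0.749, 0.201 and 0.763. Those of Ti were 0.329, 0.239 and 0.521, and those of Ti+I-OG 0.576, 0.183 and 0.273. Osteoprotegerin transcripts thus exceeded RANKL transcripts per unit length in all 9 libraries. Ti libraries lay inside the naive range. The log2 ratio differed by −0.49 between Ti and naive (exact permutation p = 0.6, adjusted p = 0.8, n = 3 each), by −0.17 between Ti+I-OG and Ti (p = 0.8, exact permutation, adjusted p = 0.8) and by −0.66 between Ti+I-OG and naive (p = 0.5, exact permutation, adjusted p = 0.8). These tests were two-sided and belong to a family of 12, and 3 libraries against 3 cannot give a p below 0.1. An exact permutation test of the F statistic over the 3 groups gave p = 0.593 (adjusted p = 0.754 over 4 ratios, n = 9). The ratio of Tnfsf11 to Tnfrsf11a, ligand to signalling receptor, was also within the spread, at 1.53 ± 0.393 (naive), 1.63 ± 0.0838 (Ti) and 1.24 ± 0.535 (Ti+I-OG), mean and SD of 3 libraries. Its F statistic had an exact permutation p = 0.482 (adjusted p = 0.754).

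**Figure D1:**
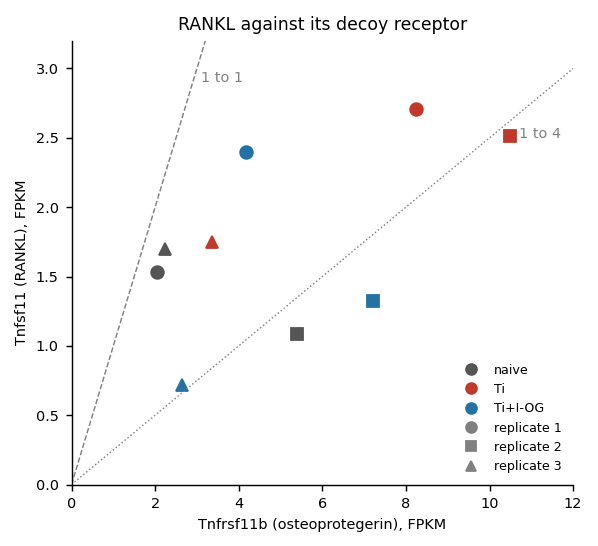
FPKM of Tnfsf11 (RANKL, vertical axis) against FPKM of Tnfrsf11b (osteoprotegerin, horizontal axis) in each of the 9 libraries, coloured by group and shaped by replicate, with lines at a ratio of 1 to 1 and 1 to 4. All libraries lie below the 1 to 1 line, and the ratios of the groups overlap (0.201 to 0.763 in naive, 0.239 to 0.521 in Ti, 0.183 to 0.576 in Ti+I-OG).

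Downstream of RANK, the transcripts of the adaptor and of the master transcription factor were not higher in either particle group. Traf6, the ubiquitin ligase that couples RANK to NF-κB, fell. It was at 7.28, 6.72 and 8.97 FPKM in naive, at 5.92, 5.49 and 4.65 FPKM in Ti, and at 5.13, 3.94 and 4.29 FPKM in Ti+I-OG. Every library given particles lay below every naive library. Ti+I-OG over naive had a log2 fold change of −0.58 (SE 0.156, 95% interval −0.92 to −0.24), a level 0.669 times that of naive (adjusted p = 0.0451). It stood just inside the threshold and, of 6 fits that each dropped 1 library, passed in the one without naive replicate 2 (adjusted p = 0.0329 there and 0.0653 to 0.165 in the others), and not in a fit of the 6 naive and Ti+I-OG libraries alone (adjusted p = 0.051). For Ti over naive it was −0.44 (SE 0.155, adjusted p = 0.106).

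Nfatc1 was at 14.2, 12.1 and 21.2 FPKM in naive replicates 1 to 3. Ti libraries held 14.0, 12.6 and 17.4 FPKM, and Ti+I-OG libraries 9.79, 10.6 and 12.6 FPKM. Naive replicate 3 was the highest library. On this scale the lowest Ti library lay just above the highest Ti+I-OG library, equal to 3 digits, while in CPM every pair of groups overlapped. The log2 fold change was −0.02 for Ti over naive (SE 0.191, 95% interval −0.44 to 0.40, adjusted p = 0.96) and −0.31 for Ti+I-OG over naive (SE 0.191, adjusted p = 0.287). The first interval leaves room for a change of that size in either direction. Without naive replicate 3 the value for Ti over naive was 0.20 (adjusted p = 0.558).

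Csf1, which encodes M-CSF, had the largest p of the 9 genes in the F test over the 3 groups (adjusted p = 0.713). Naive libraries held 10.2, 11.0 and 8.78 FPKM, Ti libraries 10.1, 10.5 and 12.6 FPKM, and Ti+I-OG libraries 8.48, 8.10 and 9.64 FPKM. On this scale all Ti libraries lay above all Ti+I-OG libraries, while in CPM every pair of groups overlapped. The log2 fold change was 0.12 for Ti over naive (SE 0.153, 95% interval −0.22 to 0.45, adjusted p = 0.655) and −0.04 for Ti+I-OG over naive (SE 0.154, adjusted p = 0.89). Csf1r, its receptor and a gene of all monocytes and macrophages, was at 34.5, 28.4 and 51.9 FPKM in naive, at 42.1, 38.8 and 50.1 FPKM in Ti, and at 33.4, 38.2 and 43.2 FPKM in Ti+I-OG. Naive replicates 2 and 3 held the lowest and the highest FPKM of all 9 libraries. In CPM naive replicate 2 was still the lowest, at 103, but naive replicate 3, at 158, stood below 4 of the particle-treated libraries (165 to 193 CPM). For Ti over naive the log2 fold change was 0.39 (SE 0.169, adjusted p = 0.162) on the count scale.

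For Csf1r the counts and FPKM values do not carry the same information. The transcript length implied by the ratio of the deposited values was 3323 bases in naive replicate 3 and had a median of 3906 bases over the libraries, and for Csf1 it ran from 2989 to 3544 bases. The longest was 1.19 times the shortest for each of these genes and at most 1.02 times for the other 7. Exons of Csf1r also overlap those of Hmgxb3 on the opposite strand in GENCODE M21, and without strand reads of the overlap cannot be assigned, so its values are uncertain. Hmgxb3 was at 2.71 to 5.65 FPKM. The FPKM ratio of Csf1 to Csf1r was 0.284 ± 0.110 (naive), 0.254 ± 0.0154 (Ti) and 0.230 ± 0.0215 (Ti+I-OG), mean and SD of 3 libraries, with an exact permutation p = 0.754 for the F statistic (adjusted p = 0.754).

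Trem2 and Tyrobp encode a receptor and its signalling partner. TREM2 is a lipid-sensing receptor of macrophages and osteoclast precursors with no signalling motif of its own, and DAP12, the product of Tyrobp, supplies the tyrosine-based activation motif that recruits the kinase SYK. Trem2 rose in both particle groups and was the single member that passed in Ti. Trem2 stood at 9.88, 9.25 and 11.0 FPKM in the naive libraries. It reached 16.1, 26.2 and 16.6 FPKM in the Ti libraries, and 15.0, 17.5 and 15.1 FPKM in the Ti+I-OG libraries. All 6 libraries given particles lay above all 3 naive libraries, and Ti replicate 2 stood above the rest. The log2 fold change was 1.05 for Ti over naive (SE 0.201, 95% interval 0.61 to 1.49, adjusted p = 0.0167) and 0.86 for Ti+I-OG over naive (SE 0.202, 95% interval 0.42 to 1.31, adjusted p = 0.0315). Trem2 also passed the F test over the 3 groups (adjusted p = 0.0303), as 5.77% of genes did, and in 4 of 9 such fits with a library left out. Without Ti replicate 2 the first value was 0.77 and did not pass (adjusted p = 0.0685). When single libraries were dropped, the second passed only without naive replicate 2, 1 of 6 such fits (adjusted p = 0.0416 there and 0.0537 to 0.139 in the others).

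Tyrobp, at 534 to 933 FPKM the most abundant of the 9, did not pass. It was at 821, 668 and 534 FPKM in naive, at 834, 758 and 860 FPKM in Ti, and at 818, 933 and 632 FPKM in Ti+I-OG. Each group overlapped the others. The log2 fold change was 0.35 for Ti over naive (SE 0.202, adjusted p = 0.29) and 0.44 for Ti+I-OG over naive (SE 0.202, 95% interval 0.00 to 0.88, adjusted p = 0.171). Measured within libraries, the FPKM ratio of Trem2 to Tyrobp took values of 0.012, 0.0138 and 0.0205 in naive tibiae. Ti tibiae had 0.0193, 0.0345 and 0.0193. The values were 0.0184, 0.0188 and 0.0238 in Ti+I-OG. Naive replicate 3 reached into the range of the particle groups, and the difference of 0.64 in log2 ratio between Ti and naive had an exact permutation p = 0.3 (adjusted p = 0.8, n = 3 each).

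Macrophage and monocyte markers were set beside Trem2, since those cells carry it. Of 10 macrophage genes Cd68 alone rose in Ti (none without naive replicate 3) and 9 did not pass, with a summed level of 768 to 1000 CPM in naive, 925 to 1010 CPM in Ti and 983 to 1180 CPM in Ti+I-OG. In Ti 6 of the 10 had a positive log2 fold change (median 0.19). In Ti+I-OG against naive 1 rose and 9 had a positive log2 fold change (median 0.56). There 5 had an unadjusted p under 0.05 in edgeR's test, where 29.8% of all genes did. Of 6 monocyte genes 1 rose in Ti, and their sums overlapped between Ti+I-OG and naive (5680 to 7350 CPM in naive, 8040 to 9250 CPM in Ti and 6060 to 9170 CPM in Ti+I-OG). Lyz2 made up most of these sums, at 5340, 7730 and 7160 CPM on average in naive, Ti and Ti+I-OG. Ly6c2 stood at 746, 631 and 576 CPM and Ccr2 at 297, 265 and 225 CPM in the same order. In Ti 3 of the 6 had a positive log2 fold change, with a median of −0.04. The macrophage genes Marco and Timd4 were near 0, at 0.392 to 1.16 and 1.36 to 2.85 CPM on average per group. The part of these cells in the level of Trem2 was not tested.

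**Figure D2:**
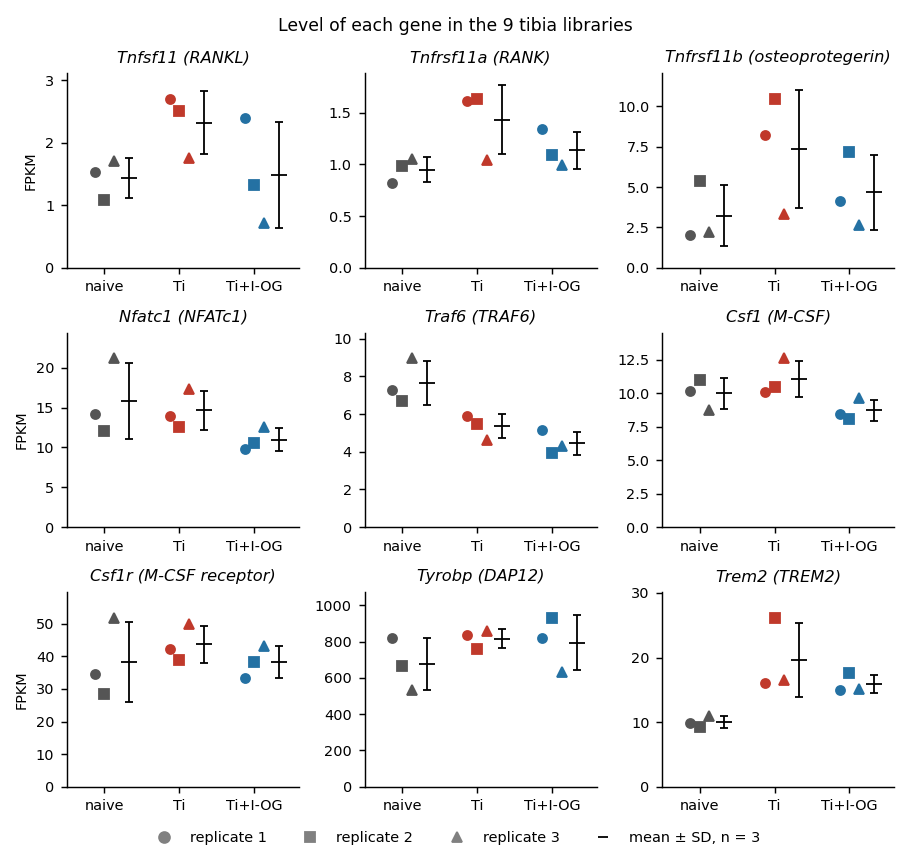
FPKM (vertical axes, from 0) of the 9 genes in naive, Ti and Ti+I-OG libraries; symbols mark replicates, and the black bar is the mean with its SD (n = 3). The Trem2 panel shows all 6 particle-treated libraries above 15.0 FPKM and all naive libraries at or below 11.0 FPKM, and the Tnfrsf11b panel shows replicate 2 as the highest library of each group.

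Read across the set, few of the 9 genes were called. In Ti against naive 1 of 9 rose and none fell, where 6.43% of all tested genes were called (4.05% higher and 2.39% lower). An unadjusted p under 0.05 was reached by 5 of the 9 in Ti and by 2 of the 9 in Ti+I-OG, where 26.9% and 29.8% of all tested genes reached it. Against naive, Ti+I-OG had 1 member that rose and 1 that fell, Trem2 and Traf6, where 8.26% of genes were called (3.84% higher and 4.43% lower). Without naive replicate 3 the members called numbered 1 and 0, where 1.48% and 1.3% of genes were called. With any 1 library left out they numbered 0 to 3 and 0 to 2. In CPM the libraries did not overlap for 4 of 9 genes in the first of these comparisons and for 3 of 9 in the second, where 27.2% and 35.5% of all tested genes did not overlap. The median log2 fold change of the set was 0.39 and 0.33, against 0.01 and 0.03 over all genes tested. Both comparisons share the naive libraries.

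**Figure D3:**
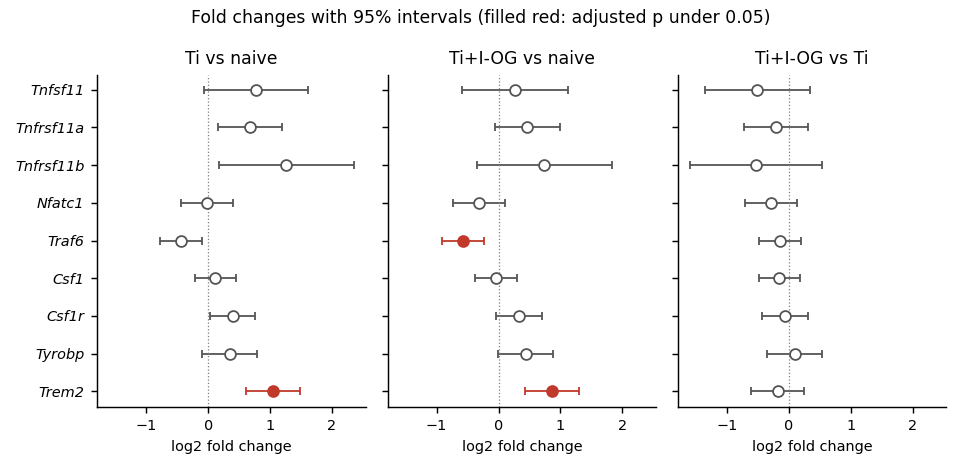
Log2 fold change of each of the 9 genes (horizontal axis) in the 3 comparisons, with 95% intervals from edgeR's quasi-likelihood fit; filled red points have an adjusted p under 0.05. Trem2 is filled at 1.05 and 0.86 against naive and Traf6 at −0.58, and no point is filled in Ti+I-OG against Ti.

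The wider pathway was followed with 99 further genes sorted by role, of which 96 passed the filter on low counts. In Ti against naive 9 rose, 3 fell and 84 did not pass, where 4.05% of all genes tested rose and 2.39% fell. The median log2 fold change was −0.10, against 0.01 over all genes tested. For Ti+I-OG over naive 9 rose and 5 fell, where 3.84% and 4.43% of all genes did. The median there was −0.13, against 0.03. The same shares apply to the counts per role below. Without naive replicate 3 the genes that rose and fell numbered 6 and 1 in Ti, and 4 and 2 in Ti+I-OG. In those fits 1.48% and 1.3% of all genes were called. With any 1 library left out, 4 to 16 genes were called in Ti and 1 to 22 in Ti+I-OG. The fewest were called without Ti replicate 1 and without Ti+I-OG replicate 2. Among 12 tested ligands and receptors Sdc1 rose in Ti from 7.67 ± 0.406 to 12.8 ± 0.883 FPKM (SD, n = 3 each; log2 fold change 0.95, adjusted p = 0.00753). It encodes syndecan-1, a heparan sulfate proteoglycan that binds osteoprotegerin. Csf2rb, the common β chain of the GM-CSF, IL-3 and IL-5 receptors, fell by 1.35 on the log2 scale (adjusted p = 0.0115). Its naive libraries ranged from 39.7 to 106 FPKM, it has a near-identical neighbour in the mouse, so its value is uncertain, and its call was lost when Ti replicate 1 or 2 was dropped (adjusted p = 0.0665 and 0.0527). Il34, the other ligand of the M-CSF receptor, was at 0.35 (SE 0.225, adjusted p = 0.341), and its exons overlap unnamed genes on the opposite strand. Lgr4, an alternative receptor of RANKL, was at 1.43 ± 0.455 FPKM in naive, 2.66 ± 0.863 FPKM in Ti and 1.59 ± 0.124 FPKM in Ti+I-OG (SD, n = 3 each). Its log2 fold change of 0.96 for Ti over naive had an adjusted p = 0.0637 in edgeR's test. Lgr4 passed in DESeq2 (0.95, adjusted p = 0.0187), which called 1859 rather than 914 genes. Of 6 edgeR fits that each dropped a library, it passed in 2, with an adjusted p up to 0.259.

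Of the 20 RANK adaptors, NF-κB genes and MAP kinases none rose and 1 fell in Ti. This was Traf3, whose product restrains the alternative NF-κB pathway by promoting loss of the kinase NIK. It was at 8.03 ± 2.39 FPKM in naive, 4.17 ± 1.11 FPKM in Ti and 3.65 ± 0.784 FPKM in Ti+I-OG (SD, n = 3 each), with log2 fold changes of −0.77 (adjusted p = 0.0399) and −0.80 (adjusted p = 0.0356) against naive. Without naive replicate 3 these were −0.58 (adjusted p = 0.134) and −0.62 (adjusted p = 0.117), and each passed in 2 of 6 fits that dropped a library. In Ti the call was also lost in both limma-trend fits on FPKM (adjusted p = 0.0713 and 0.0723) and with the 6 libraries alone (0.0687). The NF-κB subunit gene Rel fell in Ti+I-OG as well (−0.57, adjusted p = 0.0475). Rel passed in 1 of 6 fits that dropped a library, and not with the 6 libraries alone (adjusted p = 0.0551). The median of this group was −0.21 in each of these comparisons.

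Of 16 co-stimulatory receptors and genes of the relay below them 1 rose in Ti, Oscar, a collagen-binding receptor of osteoclasts that signals through the Fc receptor γ chain. Oscar was at 1.22 to 2.88 FPKM in naive, 4.38 to 6.30 FPKM in Ti and 3.01 to 4.47 FPKM in Ti+I-OG, without overlap between naive and the other groups. Its log2 fold change was 1.48 (SE 0.290, adjusted p = 0.0183) in Ti and 1.14 (SE 0.292, adjusted p = 0.0399) in Ti+I-OG. Without naive replicate 1 it did not pass in Ti (1.43, adjusted p = 0.0522), nor without Ti replicate 1 or 2 (adjusted p = 0.062 and 0.0645), and in Ti+I-OG it passed in 1 of 6 such fits. In Ti+I-OG Oscar was also lost in both limma-trend fits (adjusted p = 0.056 and 0.0524) and with the 6 libraries alone (0.0594). Fcer1g, the γ chain itself, was at −0.05 (SE 0.143, adjusted p = 0.856). Clec5a, a myeloid receptor paired with DAP12, fell in Ti+I-OG (−0.71, adjusted p = 0.0396). It passed in 1 of 6 fits that dropped a library, and not with the 6 libraries alone (adjusted p = 0.0505). Syk, the kinase recruited by DAP12 and the γ chain, was at −0.43 (adjusted p = 0.123) in Ti and −0.54 (adjusted p = 0.058) in Ti+I-OG.

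The promoter sequences of 4 genes are given because Trem2 and Oscar are the receptor genes that rose, Traf6 is the member that fell, and Tnfsf11 is the ligand at the head of the pathway. Each is the 250 bases before the RefSeq start site in build GRCm38.p6, read 5′ to 3′ on the gene's strand. Capitals mark matches on either strand to GAGGAA, the core bound by PU.1, to TGANTCA, the AP-1 site, and to GGAAA, the core bound by NFAT; GAGGAA and GGAAA share letters where GAGGAAA occurs. Promoters were listed for 5 of the 9 members.
Trem2 (chr17:48346151-48346400, plus strand): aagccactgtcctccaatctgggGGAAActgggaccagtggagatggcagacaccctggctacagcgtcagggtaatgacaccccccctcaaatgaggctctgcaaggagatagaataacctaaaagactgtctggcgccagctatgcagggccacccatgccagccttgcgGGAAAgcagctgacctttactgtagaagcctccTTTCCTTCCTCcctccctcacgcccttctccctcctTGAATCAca
Oscar (chr7:3616158-3616407, minus strand): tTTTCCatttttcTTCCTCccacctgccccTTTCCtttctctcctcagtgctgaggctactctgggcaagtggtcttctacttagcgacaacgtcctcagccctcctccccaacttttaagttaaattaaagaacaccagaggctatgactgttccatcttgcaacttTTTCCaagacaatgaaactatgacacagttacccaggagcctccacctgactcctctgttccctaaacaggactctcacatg
Traf6 (chr2:101678170-101678419, plus strand): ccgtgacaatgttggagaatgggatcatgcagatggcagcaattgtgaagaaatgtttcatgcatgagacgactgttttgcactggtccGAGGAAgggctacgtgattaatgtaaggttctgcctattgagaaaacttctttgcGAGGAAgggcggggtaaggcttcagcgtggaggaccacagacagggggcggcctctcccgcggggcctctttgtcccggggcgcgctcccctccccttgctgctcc
Tnfsf11 (chr14:78308044-78308293, minus strand): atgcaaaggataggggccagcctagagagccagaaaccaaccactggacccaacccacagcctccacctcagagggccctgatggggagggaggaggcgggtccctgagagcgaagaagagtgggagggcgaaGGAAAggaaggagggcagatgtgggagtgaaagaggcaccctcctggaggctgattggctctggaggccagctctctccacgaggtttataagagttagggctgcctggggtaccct
The Trem2 window holds 1 match to the PU.1 core, 1 to the AP-1 site and 3 to the NFAT core, and that of Oscar 1, 0 and 3. The Traf6 window holds 2 matches to the PU.1 core and none to the others, and that of Tnfsf11 holds 1 match to the NFAT core alone. Of 32851 windows of the same length over all listed promoters 23.3% hold the PU.1 core, 6.75% the AP-1 site and 55.6% the NFAT core. These are matches of letters in a window and were not tested as sites.

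Calcium and transcription factor genes gave 2 calls in Ti. Rcan1 and Rcan2, which encode regulators of the phosphatase calcineurin, rose in Ti by 0.84 (adjusted p = 0.0467) and 1.03 (adjusted p = 0.0248) and in Ti+I-OG by 0.87 (adjusted p = 0.0399) and 0.83 (adjusted p = 0.0469), while the other 6 genes of this group did not pass. Skeletal muscle markers summed to 787 to 2300 CPM in naive, 1820 to 6430 CPM in Ti and 2800 to 4820 CPM in Ti+I-OG. All 8 had a positive log2 fold change against naive (medians 1.35 and 1.31), and 1 passed in each comparison. The part of muscle in the levels of Rcan1 and Rcan2 was not tested. When 1 library was dropped, Rcan1 passed in 1 of 6 fits for Ti and 2 for Ti+I-OG, and Rcan2 in 2 and 1, with adjusted p-values up to 0.203. Both limma-trend fits lost Rcan1 (adjusted p = 0.0784 and 0.0762 in Ti, 0.0871 and 0.0818 in Ti+I-OG). With the 6 libraries alone Rcan2 was lost in Ti and Ti+I-OG (adjusted p = 0.0569 and 0.0601) and Rcan1 in Ti+I-OG (0.0532). None of 18 transcription factors and repressors passed edgeR's test in either comparison. In Ti and Ti+I-OG 0 and 4 of them had an unadjusted p under 0.05, where 26.9% and 29.8% of all genes did. Spi1, which encodes PU.1, was at −0.38 (adjusted p = 0.261) in Ti, and Irf8, a repressor of osteoclast formation, was at −0.11 (SE 0.116, adjusted p = 0.576). Among 8 genes of the M-CSF receptor relay Cbl fell, a ubiquitin ligase that takes activated receptors out of use (−1.02, adjusted p = 0.034, in Ti and −1.41, adjusted p = 0.0149, in Ti+I-OG). Cbl was at 22.6 ± 9.98 FPKM in naive (SD, n = 3), and without naive replicate 3 its value in Ti was −0.68 (adjusted p = 0.0861), and it was also lost without Ti replicate 1 or 2 (adjusted p = 0.11 and 0.137), in both limma-trend fits (0.0569) and with the 6 libraries alone (0.0705). In Ti+I-OG the call of Cbl was lost without Ti+I-OG replicate 1 or 2 (adjusted p = 0.0542 and 0.0842).

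The effector genes at the end of the pathway held the most calls of the 7 roles. Of 14 osteoclast effector genes 5 rose in Ti and 9 did not pass, with a median of 0.33, where 4.05% of all genes rose. The same count rose in Ti+I-OG, where 3.84% of all genes did. Without naive replicate 3 the effector genes that rose numbered 4 and 2, where 1.48% and 1.3% of all genes were called. Ctsk, the collagenase of resorption, was at 170 ± 46.3 FPKM in naive, 493 ± 44.0 FPKM in Ti and 380 ± 66.3 FPKM in Ti+I-OG, and Acp5, the osteoclast acid phosphatase, at 229 ± 43.8, 566 ± 36.6 and 522 ± 123 FPKM (SD, n = 3 each). An unnamed gene overlaps Acp5 on the opposite strand. The fusion genes Dcstamp (1.58, adjusted p = 0.0233) and Ocstamp (1.48, adjusted p = 0.0109) and the proton pump subunit Atp6v0d2 (1.39, adjusted p = 0.00888) rose in Ti too. Dcstamp was lost without naive replicate 3 or Ti replicate 1 or 2 (adjusted p = 0.0568, 0.0996 and 0.0898) and Atp6v0d2 without Ti replicate 1 (adjusted p = 0.0534). Limma-trend on FPKM did not call Dcstamp in Ti (adjusted p = 0.0693 and 0.0716 with pseudocounts of 1 and 0.1). For Ti+I-OG, of 6 fits that each dropped a library, Acp5 passed in 6, Ctsk in 5, Dcstamp in 3, Atp6v0d2 in 2 and Ocstamp in 1, and limma-trend did not call Ocstamp (adjusted p = 0.0727 and 0.0617). Whether these fold changes differ from those of Tnfsf11 or Tnfrsf11a was not tested.

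**Figure D4:**
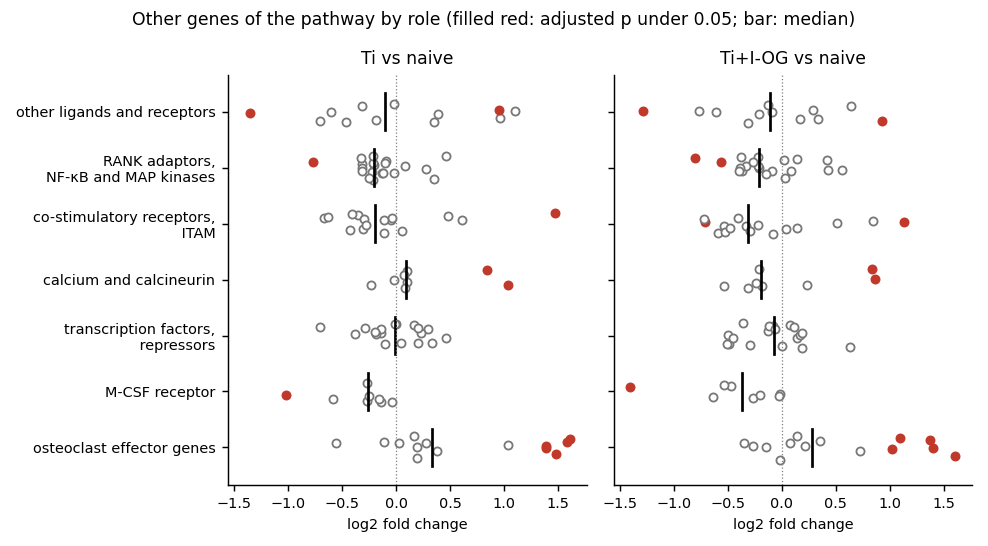
Log2 fold change (horizontal axis) of the 96 tested pathway genes outside the 9, one point per gene, by role, for Ti and for Ti+I-OG over naive; filled red points have an adjusted p under 0.05 and black bars are medians. The osteoclast effector row holds 5 filled points at 1.38 to 1.62 in Ti, and the transcription factor row holds none.

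The effect of the hydrogel was read from Ti+I-OG against Ti, where both groups carry the particles. None of the 9 genes and none of the 96 others passed edgeR's test, where 0.0422% of all genes did. An unadjusted p under 0.05 was reached by 0 and 4 of them, where 7.84% of all genes reached it. DESeq2 and limma-trend called 0 of either. Of the 9, 8 had a negative log2 fold change, with a median of −0.18 against 0.00 over all genes tested. It was −0.51 for Tnfsf11 (95% interval −1.35 to 0.34), −0.53 for Tnfrsf11b (−1.59 to 0.54), −0.21 for Tnfrsf11a (−0.72 to 0.31) and −0.18 for Trem2 (−0.62 to 0.25). Traf6 was at −0.14 (−0.48 to 0.20), Nfatc1 at −0.29 (−0.71 to 0.12), Csf1 at −0.15 (−0.49 to 0.18), Csf1r at −0.07 (−0.44 to 0.30) and Tyrobp at 0.09 (−0.35 to 0.53). In CPM the libraries of the groups overlapped for all 9 genes, where 14.5% of tested genes did not overlap. Marker sums that did not overlap were lower in Ti+I-OG than in Ti for osteoblasts (5670 to 6950 against 7890 to 9860 CPM), osteocytes (174 to 205 against 227 to 297 CPM) and chondrocytes (137 to 547 against 765 to 862 CPM). They were higher for erythroid cells (169000 to 183000 against 69600 to 103000 CPM). No gene of these 4 lists passed in this comparison. An unadjusted p under 0.05 in edgeR's test was reached by 2 of 8 osteoblast, 3 of 5 osteocyte, 4 of 5 chondrocyte and 6 of 7 erythroid genes. The part of these cells in the values of the 9 genes was not tested.

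Genes whose level followed a member most closely over the 9 libraries were ranked among 11775 genes by Pearson's r of log2 CPM, as a description. Trem2 was followed by Fndc1 (r = 0.979), Dusp14 (0.978), Timp2 (0.973), Mfge8 (0.972) and Slc6a8 (0.971). Csf1r was followed by Ctsa (0.954), Atp6ap1 (0.92), Ecm1 (0.919), Oscar (0.911) and Kdelr1 (0.908). For Tnfrsf11b they were Pcnp (0.952), Pfn2 (0.951), Zfp532 (0.95), Ppp3cc (0.947) and Get1 (0.943), and for Tnfsf11 they were Ebag9 (0.963), Ccni (0.92), Matn3 (0.917), Bet1 (0.911) and Rragc (0.906). All values come from the same libraries and share their differences in makeup.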

How the data were processed

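Polyadenylated RNA of 9 mouse tibia libraries was sequenced from a kit that does not mark strand, per the labels' protocols. Tools listed in the submitters' processing notes, with no role stated, are RSEM, edgeR, DESeq2, fastp and StringTie 1.3.1. Which aligner, genome build and annotation were used is not given in the sources used here. The promoter coordinates above are those of RefSeq in build GRCm38.p6, and the exon overlaps those of GENCODE M21. Either may differ from the annotation behind the deposited values. The authors deposited 1 table of 22183 genes with estimated counts, which need not be whole (7.43% to 9.04% of values were not), and FPKM values. Per the file headers each library has 1 column of each. Estimated counts were rounded to whole numbers. FPKM served for levels and ratios.

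All genes were tested in 1 edgeR 4.0.16 fit (R 4.3.3) of the 9 libraries with a mean per group, TMM normalisation and filterByExpr, leaving 14211 genes and 6 residual degrees of freedom. P-values were adjusted over those genes by Benjamini-Hochberg (two-sided, threshold 0.05). Each SE was derived from the log2 fold change and its F statistic. Ratios were compared by exact permutation. limma 3.58.1 and DESeq2 1.42.0 gave alternatives. The edgeR step was also run on simulated counts, drawn independently for each library, with the outcome not reported here. Those counts hold no structure by replicate number and no shift in makeup, so they do not test the fit under either. No 2 libraries of a group were copies: chi-square values of their counts were 12.9 to 132 per degree of freedom. Intervals for counts cover counting error only.

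The 9 members, the 99 pathway genes, the markers and the rule for naming were chosen with earlier results of these data known. All members were named. Of the pathway genes, up to 4 called per role, direction and comparison were named, and 11 regardless of result, of which 1 is not reported here. The 5 genes most like 4 of the members had a mean FPKM of at least 1 and a proper symbol. Exon overlaps were read from GENCODE M21, in which the members and the named pathway genes were found. Promoters came from RefSeq, build GRCm38.p6, leaving out the bases after the start site.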

Additional observations from a re-analysis of the deposited data

How the results depend on the processing

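Counts of called genes depended on the fit and on single libraries. In Ti against naive the 914 genes became 1859 in DESeq2, 556 and 544 in limma-trend on log2(FPKM + 1) and log2(FPKM + 0.1), 357 with only the 6 libraries compared, and 100 to 1999 with a library left out. Against naive, in Ti+I-OG, the 1174 genes became 2440, 1787, 1853, 770 and 59 to 2119 in the same order. In Ti+I-OG against Ti the 6 genes became 16 in DESeq2 and 0 to 5 with a library left out. The 820 genes of the F test became 2473 in DESeq2 and 139 to 1729. Of the members, 0 to 3 were called in Ti against naive with a library left out (0 without Ti replicate 2, 3 without Ti replicate 3). For Ti+I-OG over naive 0 to 2 were called, and 1 with only the 6 libraries compared. In the F test 0 to 1 were called, and 2 in DESeq2. Of the other pathway genes, 4 to 16 rather than 12 were called in Ti against naive with a library left out. For Ti+I-OG over naive 1 to 22 rather than 14 were called, and 27, 23 and 24 in DESeq2 and the 2 limma fits.

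FPKM values are not corrected for library makeup. On that scale the median of all genes in Ti+I-OG against naive was −0.12 and −0.16, against 0.03 with TMM, and 16.2% and 17.1% of called genes were higher, against 46.4%. In Ti+I-OG against Ti the median was −0.11 on the scale of log2(FPKM + 0.1). There Tyrobp turned to −0.058 in both limma fits, and Tnfsf11 in Ti+I-OG against naive turned to −0.025 and −0.088. Trem2 was called against naive in both particle groups, and Traf6 in Ti+I-OG, under DESeq2, RLE size factors, no low count filter and both limma fits. Some values near 0 changed sign with a library left out. In Ti against naive these were Nfatc1 (−0.17 to 0.20), Csf1 (−0.022 to 0.25) and Fcer1g (−0.17 to 0.014). In Ti+I-OG against Ti they were Csf1r (−0.15 to 0.039), Tyrobp (−0.074 to 0.26) and Trem2 (−0.31 to 0.083), and against naive Tnfsf11 (−0.30 to 0.60) and Csf1 (−0.18 to 0.10). The log2 ratio of Tnfsf11 to Tnfrsf11b ranged from −0.62 to 0.20 in Ti+I-OG against Ti, that of Tnfsf11 to Tnfrsf11a from −0.10 to 0.28 in Ti against naive, and that of Trem2 to Tyrobp from −0.35 to 0.066 in Ti+I-OG against Ti. That of Csf1 to Csf1r ranged from −0.42 to 0.18 in Ti against naive and from −0.57 to 0.033 in Ti+I-OG against naive. The cause of these changes was not tested, and fits with a library left out also hold fewer libraries.

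Libraries with the same replicate number are not said to share an animal or a batch. Their deviations from the group means correlated at −0.02 to 0.33 in 9 pairs, against −0.34 to 0.08 for other numbers. The best match among the 3 libraries of another group had the same number in 16 of 18 cases. The main fit takes no account of these numbers, and what they stand for was not tested. With the replicate number as a block 2968, 3450 and 3313 genes were called in Ti against naive, Ti+I-OG against naive and the F test. Of the members 4 were called in Ti against naive (Tnfrsf11b, Traf6, Csf1r and Trem2), 3 in Ti+I-OG against naive and 3 in the F test, and of the other pathway genes 24 in Ti and 37 in Ti+I-OG against naive. Depth limits Tnfsf11 most, at 29 to 135 counts per library.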
